A study of Mus musculus with 24 samples.

Results

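The integrated stress response genes described here are *Atf4*, *Atf5*, *Ddit3*, *Chac1*, *Trib3*, *Asns*, *Sesn2*, *Ddit4* and *Ppp1r15a*. They were taken by their gene name in the array annotation, which gave 9 of 27398 named genes and 11 of 41174 probes that are not controls. *Trib3* and *Sesn2* have 2 probes each and the others have 1. In all 24 samples each of the 11 probes passed the scanner software's call of well above background. Levels are log2 intensities, on which a difference of 1 is a doubling of the signal, and they can be compared between samples of a probe but not between probes.

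The samples are L4 and L5 dorsal root ganglia (DRGs) of adult male C57BL/6J mice, taken 2 or 5 days after the sciatic nerve was transected and its ends sutured together, or from the non-injured side as control. WT mice are *Nfil3* +/+ and KO mice are *Nfil3* -/- littermates, whose deletion was made with a Cre that is active in germ cells and is therefore present in all cells of the mouse. This gave 6 groups of 4 samples (WT control, WT day 2, WT day 5, KO control, KO day 2 and KO day 5), with 2 samples per group and dye on 12 two-color arrays. The labels call the tissue DRG neurons, whereas whole ganglia were dissected.

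Cells answer amino acid shortage, misfolded protein, heme shortage and viral RNA with kinases that phosphorylate the translation initiation factor eIF2alpha. General translation then falls, while the mRNA of the transcription factor ATF4 is translated better, and ATF4 raises genes for amino acid supply, redox balance, feedback control and, under lasting stress, cell death. In sensory neurons whose axon is cut, ATF3, a partner of ATF4, is a widely used injury marker.

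Of the 9 genes, 8 changed after the lesion (limma F test over both genotypes, adjusted p from 2.36e-09 to 0.0126), against 26.3% of all genes. The exception was *Ddit4* (adjusted p = 0.0855). At day 2, 6 of 9 were higher than in control DRGs (9.39% of all genes) and 0 were lower (12.9% of all genes). At day 5, 8 of 9 were higher (10.2% of all genes) and 0 were lower (13% of all genes). All such shares count every gene of the array, also those not well above background in every sample. The 9 genes were well above background in all 24 samples, and a share among such genes was not taken. The median difference of the 9 genes was 0.41 at day 2 and 0.58 at day 5 on the log2 scale, against -0.02 and -0.03 over all genes. The day 2 and day 5 comparisons share the same 8 control samples. None of the calls at day 2 and day 5 over both genotypes was lost in any of 39 alternative analyses, of which 24 left out 1 sample.

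Whole-ganglion facts that moved with the lesion stand beside these counts. The summed signal of 6 macrophage markers was 10.06 to 11.01 in control samples, 10.62 to 11.57 at day 2 and 11.81 to 12.41 at day 5 (log2), and 6 of 6 were higher at day 5. The summed signal of 9 sensory neuron markers was 18.59 to 19.07 in control samples and 18.07 to 18.59 at day 5, where 6 of 9 were lower and 1, *Tubb3*, was higher by 0.43, with all 9 well above background in every sample. The summed signals of 4 skeletal muscle markers, from 6.93 to 13.37, and of 3 blood markers, from 14.72 to 17.73, varied widely within groups, with 0 of them called at day 2 or day 5. The part of these cells in the results was not tested, and in whole ganglia more cells of a type and more RNA per cell cannot be told apart.

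The *Nfil3* signal checks the genotype labels, and 1 library stands apart from its group. On the brighter *Nfil3* probe the KO controls had 2.94, 3.80, 4.37 and, in the library labelled KO control replicate 4, 7.59, against 8.44 to 9.03 in WT controls. Another label field of this library gives day 5 where its title gives control, and its array partner was a KO sample. In KO day 2 samples the level was 5.30, 4.14, 3.03 and 6.22, and in KO day 5 samples 5.81, 3.40, 5.66 and 2.82. In each of these groups 2 of 4 samples were well above background on both probes, and these 4 are the KO samples that shared an array with a WT lesion sample. The part of the array partner was not tested. All KO samples lay below the WT samples of their time. KO minus WT for *Nfil3* was -3.98 in control DRGs (limma adjusted p = 0.99991), -5.85 in the day 2 samples (adjusted p = 0.00823) and -6.49 in the day 5 samples (adjusted p = 0.00259). With 2 of 4 KO samples not well above background, the sizes are uncertain and ran from -6.81 to -3.93 and from -7.23 to -4.36 over 15 alternatives. The day 2 call was lost without WT day 2 replicate 1 (adjusted p = 0.0566), without KO day 2 replicate 2 (0.05004) and with processed signals (0.138), and the day 5 call with processed signals (0.0532). The control difference passed with no background correction (-2.41, adjusted p = 0.00819) and with normexp correction (-2.12, adjusted p = 0.00422). On the second *Nfil3* probe KO minus WT was -3.22 in control DRGs (limma adjusted p = 0.253). It was -5.15 at day 2 (adjusted p = 0.000553) and -5.86 at day 5 (adjusted p = 6.53e-05), with sizes uncertain for the same reason. Without the library labelled KO control replicate 4, KO minus WT in control DRGs on the brighter probe was -4.95 (limma adjusted p = 0.0123). The size is uncertain, since the 3 KO controls other than that library were not well above background. Its level of *Chac1*, the member with the largest lesion change, was 9.51, next to 8.85, 9.14 and 9.06 in the other KO controls and 11.13 to 11.87 in KO day 5 samples. Without it, 6 of 9 genes were again higher at day 2 and 8 of 9 at day 5 over both genotypes.

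**Figure D1:**
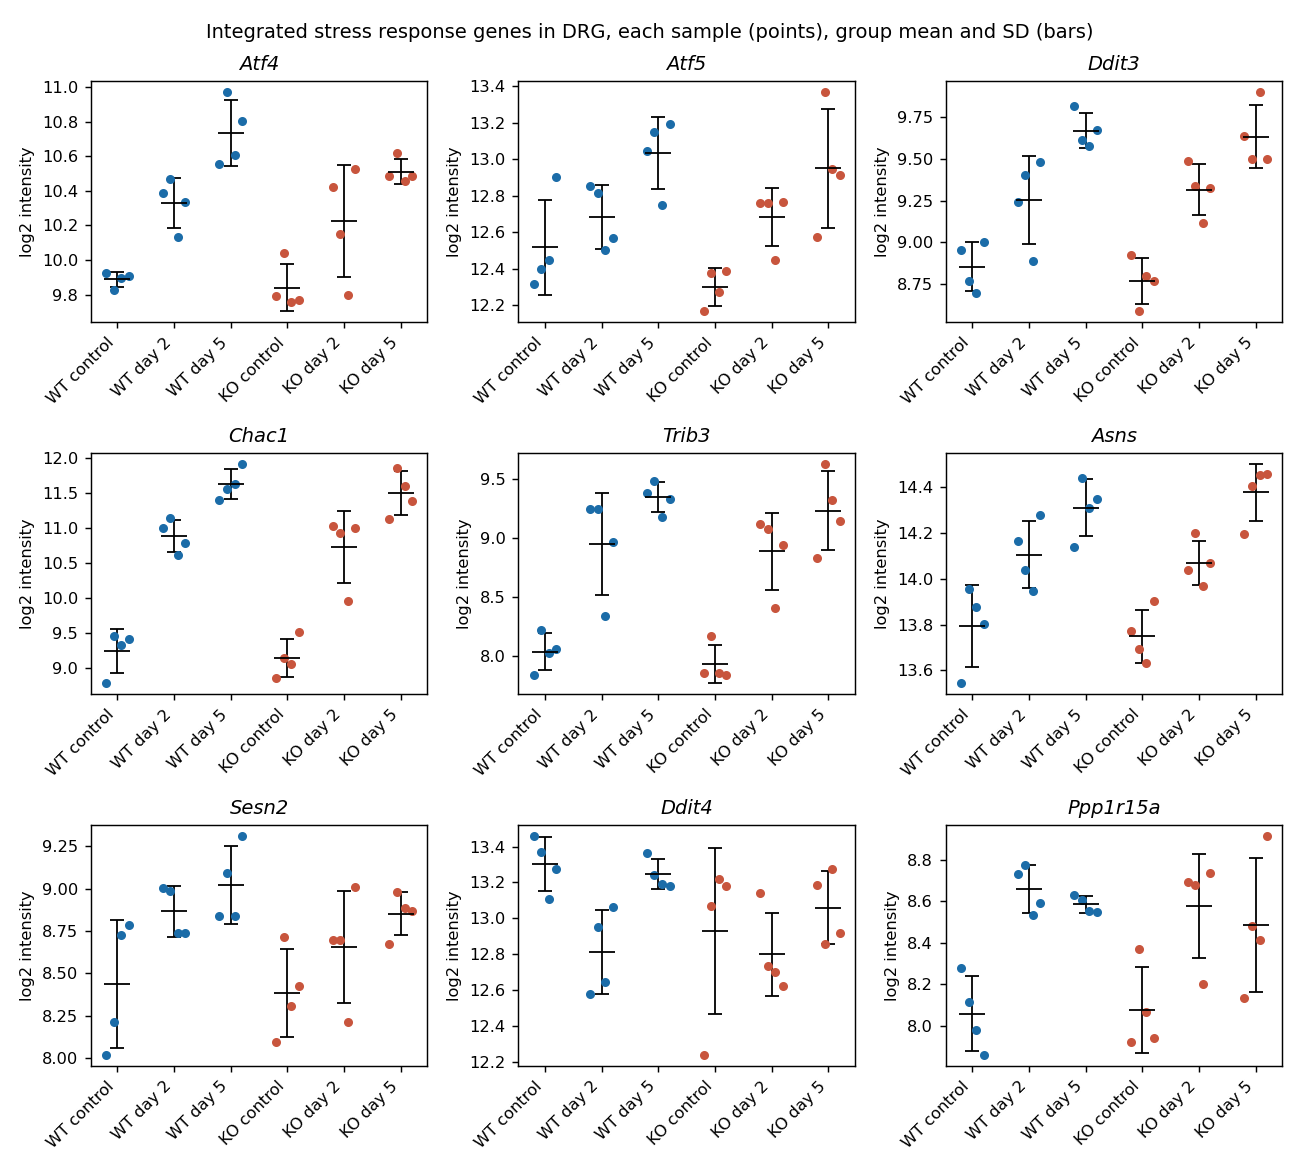
Log2 intensity of the brightest probe of each of the 9 genes (y axis, own scale per panel) in the 6 groups (x axis), with 1 point per sample, blue for WT and red for KO, and bars for the group mean and SD of 4 samples. *Chac1* rises from 8.78 to 9.51 in controls to 11.13 to 11.92 at day 5, whereas *Ddit4* lies between 12.24 and 13.46 in all groups.

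*Atf4*, the central transcription factor of the response, was measured by 1 probe on chromosome 15 (mm9, 80087079 to 80087138, + strand). In WT mice its level was 9.93, 9.83, 9.89 and 9.91 in control samples, 10.39, 10.47, 10.13 and 10.33 at day 2, and 10.55, 10.97, 10.61 and 10.80 at day 5. KO samples had 9.79, 10.04, 9.76 and 9.77, then 10.42, 10.15, 9.80 and 10.53, then 10.48, 10.62, 10.46 and 10.49. All 8 day 5 samples lay above all 8 controls, while at day 2 KO replicate 3 stayed within the control range. Over both genotypes *Atf4* mRNA rose by 0.41 at day 2 (SE 0.09, limma adjusted p = 0.00251) and by 0.76 at day 5 (SE 0.09, adjusted p = 3.42e-06), which is 1.69-fold. The array measures mRNA and not the translation by which ATF4 is mainly controlled.

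*Atf5*, a relative of ATF4 whose mRNA is controlled in a similar way, was measured on chromosome 7 (mm9, 52067718 to 52067777, - strand). WT samples had 12.32, 12.40, 12.45 and 12.90 in controls, 12.85, 12.81, 12.50 and 12.57 at day 2, and 13.04, 13.15, 12.75 and 13.19 at day 5. KO samples had 12.17, 12.37, 12.27 and 12.39, then 12.76, 12.76, 12.45 and 12.77, then 12.57, 13.37, 12.95 and 12.91. WT control replicate 4 lay above all WT day 2 samples, so that WT groups overlapped at both times, while all KO lesion samples lay above the KO controls. *Atf5* was 0.58 higher at day 5 (SE 0.11, limma adjusted p = 0.000437). Its difference of 0.28 at day 2 did not pass (adjusted p = 0.0822). It passed without WT control replicate 4 (0.34, adjusted p = 0.0243) or without KO day 2 replicate 3 (0.32, adjusted p = 0.0479). With processed signals and all samples kept it also passed (0.29, limma adjusted p = 0.0103).

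*Ddit3* encodes CHOP, a C/EBP factor of the later, death-related arm, and its probe on chromosome 10 (mm9, + strand) is placed from 126732518 to 126732821. WT samples had 8.95, 8.77, 8.69 and 9.002 in controls, 9.24, 9.40, 8.88 and 9.48 at day 2, and 9.81, 9.61, 9.58 and 9.67 at day 5. KO samples had 8.92, 8.59, 8.80 and 8.77, then 9.49, 9.34, 9.11 and 9.33, then 9.63, 9.50, 9.90 and 9.50. Only WT day 2 replicate 3 of the 16 lesion samples lay within the control range. *Ddit3* rose by 0.47 at day 2 (SE 0.09, limma adjusted p = 0.000659) and by 0.84 at day 5 (SE 0.09, adjusted p = 7.13e-07), which is 1.79-fold.

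*Chac1*, *Trib3* and *Asns* are classical targets of ATF4 and its C/EBP partners, and these 3 genes carry, near their start sites, the 8 letters TGATGNAA of a C/EBP-ATF element on 1 of the strands. The bases before the start site of *Chac1* and *Asns* are shown 5′ to 3′ on the gene's strand from RefSeq (GRCm38.p6), with the match in capitals, to let the element be seen in its context. The *Trib3* match lies 15 bases after the start site, so that 30 bases around it are shown.
Chac1 (chr2:119350992-119351241, + strand): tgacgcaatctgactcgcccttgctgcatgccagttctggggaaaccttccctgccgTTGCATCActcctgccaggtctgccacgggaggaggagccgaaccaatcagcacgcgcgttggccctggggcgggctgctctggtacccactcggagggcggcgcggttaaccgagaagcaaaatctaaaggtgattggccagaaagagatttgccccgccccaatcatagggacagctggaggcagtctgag
Trib3 (chr2:152344028-152344057, - strand): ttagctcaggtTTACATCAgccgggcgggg
Asns (chr6:7693210-7693459, - strand): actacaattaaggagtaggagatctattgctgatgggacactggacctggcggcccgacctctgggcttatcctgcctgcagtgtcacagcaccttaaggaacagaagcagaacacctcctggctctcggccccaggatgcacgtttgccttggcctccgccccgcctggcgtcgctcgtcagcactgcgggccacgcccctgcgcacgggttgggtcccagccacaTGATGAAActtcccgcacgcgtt
Counted from the start site, the *Chac1* match has its first base at -193 and the *Asns* match at -23. The *Chac1* and *Trib3* matches are on the opposite strand. The element was found in windows of 3 of the 9 genes and in 3.97% of all 32851 RefSeq promoter windows of 300 bases, on either strand. The letters TTANNTAA of an NFIL3 type site were in the windows of 0 of 9 genes and in 6% of all windows. A match is a description of letters and not a binding site, and *Atf5* has 2 windows.

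*Chac1* encodes an enzyme that breaks down glutathione, and of the 9 genes it had the largest change at both times. Its probe lies on chromosome 2 (mm9, 119179990 to 119180049, + strand). WT samples had 8.78, 9.46, 9.33 and 9.41 in controls, 10.998, 11.14, 10.62 and 10.78 at day 2, and 11.40, 11.56, 11.63 and 11.92 at day 5. KO samples had 8.85, 9.14, 9.06 and 9.51, then 11.03, 10.93, 9.96 and 11.01, then 11.13, 11.87, 11.60 and 11.38. All 16 lesion samples lay above all 8 controls. *Chac1* rose by 1.62 at day 2 (SE 0.16, 95% CI 1.28 to 1.95, limma adjusted p = 3.18e-07), a 3.06-fold change, and by 2.37 at day 5 (SE 0.16, 95% CI 2.03 to 2.70, adjusted p = 8.03e-10), a 5.16-fold change. Within the 3 slides the day 5 difference was 2.54, 2.14 and 2.45, and in Cy3 and Cy5 it was 2.43 and 2.30. At day 2 it was 1.97 in Cy3 and 1.26 in Cy5.

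*Trib3* encodes a pseudokinase that binds ATF4 and dampens its activity, and its brighter probe lies on chromosome 2 (mm9, 152163355 to 152163414, - strand). WT samples had 7.84, 8.22, 8.03 and 8.06 in controls, 9.25, 9.25, 8.33 and 8.96 at day 2, and 9.38, 9.48, 9.18 and 9.33 at day 5. KO samples had 7.85, 8.17, 7.86 and 7.84, then 9.12, 9.08, 8.41 and 8.93, then 8.83, 9.63, 9.32 and 9.14. Every lesion sample lay above every control, with replicate 3 the lowest in both day 2 groups. *Trib3* rose by 0.93 at day 2 (SE 0.14, limma adjusted p = 4.89e-05) and by 1.30 at day 5 (SE 0.14, adjusted p = 6.07e-07), a 2.47-fold change. The second probe (mm9, 152164025 to 152164084) rose less, by 0.55 and 0.77, and passed at both times (adjusted p = 9.65e-05 and 1.29e-06).

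*Asns* encodes asparagine synthetase, and its probe lies on chromosome 6 (mm9, 7625194 to 7625253, - strand). WT samples had 13.54, 13.96, 13.88 and 13.80 in controls, 14.16, 14.04, 13.95 and 14.28 at day 2, and 14.14, 14.44, 14.31 and 14.35 at day 5. KO samples had 13.77, 13.70, 13.63 and 13.90, then 14.04, 14.20, 13.97 and 14.07, then 14.20, 14.40, 14.46 and 14.46. The day 5 samples all lay above the controls, and at day 2 only WT replicate 3 did not clear WT control replicate 2. *Asns* rose by 0.32 at day 2 (SE 0.07, limma adjusted p = 0.00344) and by 0.57 at day 5 (SE 0.07, adjusted p = 6.49e-06), a 1.49-fold change.

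*Sesn2* and *Ddit4* encode stress-induced proteins that lower mTORC1 activity, and only the first rose. *Sesn2* lies on chromosome 4, with its brighter probe at 132048858 to 132048917 and its second probe at 132047974 to 132048033 (mm9, - strand). On the brighter probe WT samples had 8.02, 8.21, 8.73 and 8.78 in controls, 9.004, 8.98, 8.74 and 8.74 at day 2, and 8.84, 9.09, 8.84 and 9.31 at day 5. KO samples had 8.09, 8.72, 8.31 and 8.43, then 8.70, 8.70, 8.21 and 9.01, then 8.68, 8.98, 8.88 and 8.87. The controls spread widely and reached into the lesion groups. The difference of 0.35 at day 2 did not pass (SE 0.13, limma adjusted p = 0.0629), and *Sesn2* was 0.53 higher at day 5 (SE 0.13, adjusted p = 0.00493). The day 2 difference passed without WT control replicate 3, WT control replicate 4, KO control replicate 2 or KO day 2 replicate 3, each left out alone (adjusted p = 0.0417, 0.0312, 0.0351 and 0.0173). It also passed with slide as a block (0.29, adjusted p = 0.00312), with normexp correction (0.29, adjusted p = 0.0406), with a filter on dim probes (adjusted p = 0.0396) and with an intensity trend in eBayes (adjusted p = 0.039). The second probe, with 7.25 to 8.19 in controls, 8.18 to 9.10 at day 2 and 8.89 to 9.51 at day 5, gave larger differences, 0.87 at day 2 (adjusted p = 0.000266) and 1.39 at day 5 (adjusted p = 8.43e-07). The probes thus differ on whether *Sesn2* was already higher at day 2, and with both averaged the day 2 difference was 0.61 (adjusted p = 0.00194).

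*Ddit4*, also known as REDD1, was measured on chromosome 10 (mm9, 59412486 to 59412545, - strand). WT samples had 13.46, 13.37, 13.11 and 13.28 in controls, 12.58, 12.95, 12.64 and 13.06 at day 2, and 13.36, 13.24, 13.19 and 13.18 at day 5. KO samples had 12.24, 13.07, 13.22 and 13.18, then 13.14, 12.73, 12.70 and 12.62, then 13.18, 12.86, 13.28 and 12.92. All WT day 2 samples lay below all WT controls, whereas the KO groups overlapped, with KO control replicate 1 the lowest of all 24 samples. The limma difference over both genotypes was -0.31 for day 2 (SE 0.13, adjusted p = 0.0941) and 0.04 for day 5 (SE 0.13, 95% CI -0.23 to 0.30, adjusted p = 0.898). Without KO control replicate 1 the day 2 difference was -0.43 and passed (adjusted p = 0.00372), so that the call at day 2 turns on this sample.

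*Ppp1r15a* encodes GADD34, the subunit that directs protein phosphatase 1 to eIF2alpha and so ends the response. It is the member whose promoter window holds a CRE, the letters TGACGTCA to which CREB and ATF factors bind, with its first base at -12 from the start site, which 1.79% of all windows hold on either strand. The bases before its start site are shown with the CRE in capitals (GRCm38.p6, 5′ to 3′ on the gene's strand).
Ppp1r15a (chr7:45526269-45526518, - strand): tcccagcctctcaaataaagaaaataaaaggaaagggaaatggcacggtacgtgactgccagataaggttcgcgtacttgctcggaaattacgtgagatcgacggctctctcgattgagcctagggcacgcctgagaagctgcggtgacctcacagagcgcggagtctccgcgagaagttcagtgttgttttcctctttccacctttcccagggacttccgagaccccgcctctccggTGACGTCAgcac
Its probe lies on chromosome 7 (mm9, 52779582 to 52779641, - strand). WT samples had 8.28, 8.12, 7.98 and 7.86 in controls, 8.73, 8.78, 8.53 and 8.59 at day 2, and 8.63, 8.61, 8.55 and 8.55 at day 5. KO samples had 7.92, 8.37, 8.07 and 7.94, then 8.70, 8.68, 8.20 and 8.74, then 8.13, 8.48, 8.41 and 8.92. WT lesion samples all lay above WT controls, and KO groups overlapped. *Ppp1r15a* rose by 0.55 at day 2 (SE 0.11, limma adjusted p = 0.00065) and by 0.47 at day 5 (SE 0.11, adjusted p = 0.00226), with no further rise between the days (-0.08, 95% CI -0.30 to 0.14, adjusted p = 0.784).

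**Figure D2:**
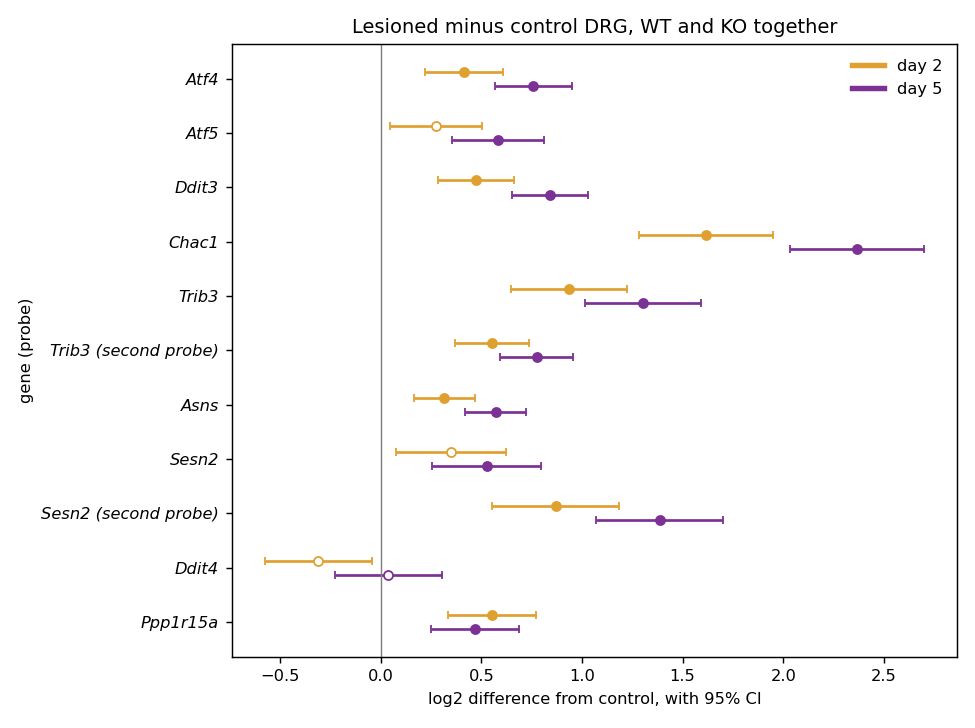
Log2 difference between lesioned and control DRGs over both genotypes (x axis, 8 against 8 samples) for the 11 probes of the 9 genes (y axis), at day 2 (orange) and day 5 (purple), with 95% confidence intervals and filled points where the limma adjusted p was under 0.05. *Chac1* stands furthest to the right with 1.62 and 2.37, and *Ddit4* is the gene without a filled point.

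Between day 2 and day 5, 3 of 9 genes rose further, against 2.32% of all genes. *Chac1* rose by 0.75 (limma adjusted p = 0.00996), *Ddit3* by 0.37 (adjusted p = 0.0283) and *Atf4* by 0.35 (adjusted p = 0.044). The day 2 and day 5 samples of *Chac1* and *Atf4* overlapped. The other 6 genes did not pass, with differences from -0.08 for *Ppp1r15a* to 0.37 for *Trib3*. Of these 3, the *Atf4* call was lost in 18 of 24 analyses that left out 1 sample and with median foreground (0.33, adjusted p = 0.0639), and the *Ddit3* call in 5 of 24. The slides were unequal in day, and with slide as a block the *Ddit3* call was lost (0.33, adjusted p = 0.0636) while *Atf5*, *Asns* and *Sesn2* passed (0.41, 0.32 and 0.30, adjusted p = 0.0158, 0.00835 and 0.0158). The count fell to 1 without WT day 2 replicate 1, WT day 5 replicate 4, KO day 2 replicate 3 or KO day 5 replicate 3. Without the library labelled KO control replicate 4 it was 2.

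The day 2 groups each held a low sample. KO day 2 replicate 3 was the lowest of its group for 8 of 9 genes, with a median deviation of -0.38 from the group mean, and WT day 2 replicate 3 was the lowest for 8 of 9, with -0.18. Both were labelled with Cy5. Slide 1 held KO day 2 replicate 3 as its 1 day 2 sample, and 7 of 9 genes were above the controls of that slide, against 8 of 9 on each of the other two slides. At day 5, 9, 8 and 9 of 9 genes were above the controls of their slide. For *Atf5* the day 2 difference was 0.48 in Cy3 and 0.07 in Cy5 samples, and for *Sesn2* 0.59 and 0.11.

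Within WT mice, 4 of 9 genes were higher at day 2 (5.16% of all genes) and 8 of 9 at day 5 (6.43%). *Atf4*, *Chac1*, *Trib3* and *Ppp1r15a* passed at day 2. *Chac1* rose by 1.64 by day 2 (limma adjusted p = 5.79e-05) and by 2.38 by day 5 (adjusted p = 2.98e-07). Within KO mice, 4 of 9 were higher at day 2 (5.54%) and 6 of 9 at day 5 (6.14%). *Ddit3*, *Chac1*, *Trib3* and *Ppp1r15a* passed at day 2, and all but *Ddit4*, *Ppp1r15a* and, on its brighter probe, *Sesn2* at day 5. *Chac1* rose by 1.59 by day 2 (adjusted p = 7.85e-05) and by 2.35 by day 5 (adjusted p = 3.73e-07). *Sesn2*, which passed in WT at day 5 (0.59, adjusted p = 0.0394), differed by 0.47 in KO on the brighter probe (adjusted p = 0.118). On its second probe *Sesn2* passed in both genotypes, with 1.25 in WT (adjusted p = 0.000401) and 1.52 in KO (adjusted p = 5.44e-05), and the KO difference also passed with both probes averaged (0.99, adjusted p = 0.00101) and with slide as a block (0.55, adjusted p = 0.000459). *Ppp1r15a* differed by 0.53 in WT (adjusted p = 0.0215) and by 0.41 in KO (adjusted p = 0.0838).

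Several calls within a genotype lie near the threshold. The day 2 count reached 6 of 9 in each genotype under several of the 15 alternatives. *Asns* passed at day 2 in 9 of them in WT and 10 in KO, *Ddit3* in 9 in WT and *Atf4* in 6 in KO, so that the genes called in each genotype do not show a difference between genotypes. Other calls rest on single samples. In WT, the *Atf4* call at day 2 was lost without any 1 of the WT controls or without WT day 2 replicate 1, 2 or 4. At day 5 in WT, leaving out control 1, 2 or 3 or lesion sample 1, 2 or 4 ended the *Atf5* call. Leaving out control 1 or 2 or lesion sample 2 or 4 ended the *Sesn2* call, and control 3 or 4 or lesion sample 1 the *Ppp1r15a* call. In KO, the *Ppp1r15a* call at day 2 was lost without KO control replicate 1 or 3, the library labelled KO control replicate 4, or KO day 2 replicate 1, 2 or 4. With that library counted as KO day 5, 1 of 9 genes was higher in KO at day 2 and 3 of 9 at day 5.

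Whether the genotype alters these genes was asked at each time. KO minus WT passed for 0 of 9 genes in control DRGs (0% of all genes), 0 of 9 at day 2 (0.0146% of all genes) and 0 of 9 at day 5 (0.0109% of all genes). The time by genotype interaction passed for 0 of 9 genes (0% of all genes), with a smallest unadjusted p of 0.377 among them (limma F test). *Nfil3*, the deleted gene, did not pass it either (unadjusted p = 0.0998 on the brighter and 0.0091 on the second probe, limma F test). That 0 of 9 passed therefore does not show an equal lesion response in both genotypes. At an unadjusted limma p under 0.05, KO minus WT passed for 466 of 27398 genes in control DRGs. At day 2 it passed for 1058 and at day 5 for 641. Among the 9 genes, 1 of the 27 differences passed, that of *Ddit4* in control DRGs. It was -0.38 (95% CI from -0.75 to just under 0, limma adjusted p = 0.99991), with KO control replicate 1 among the 4 KO samples.

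The widest differences of the other genes were -0.22 for *Atf4* at day 5 (95% CI -0.49 to 0.05), -0.22 for *Atf5* in control DRGs (95% CI -0.54 to 0.11) and -0.21 for *Sesn2* at day 2 (95% CI -0.60 to 0.17). Of the 27 differences, 24 were below 0, and all lay from -0.38 to 0.07. The median of the 9 genes was -0.09 for controls, -0.06 for day 2 and -0.12 for day 5. Over all genes the median was 0.003, 0.011 and 0.012. The 27 differences come from 9 genes measured on the same 24 samples and are not independent. Whether so many below 0 differs from chance was not tested. For *Chac1* KO minus WT was -0.10 in control DRGs (95% CI -0.57 to 0.37), -0.15 at day 2 (95% CI -0.62 to 0.32) and -0.13 at day 5 (95% CI -0.60 to 0.34). These intervals allow for *Chac1* a level in KO lower by up to 0.62 on the log2 scale, so that a p above the threshold does not show equal levels.

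**Figure D3:**
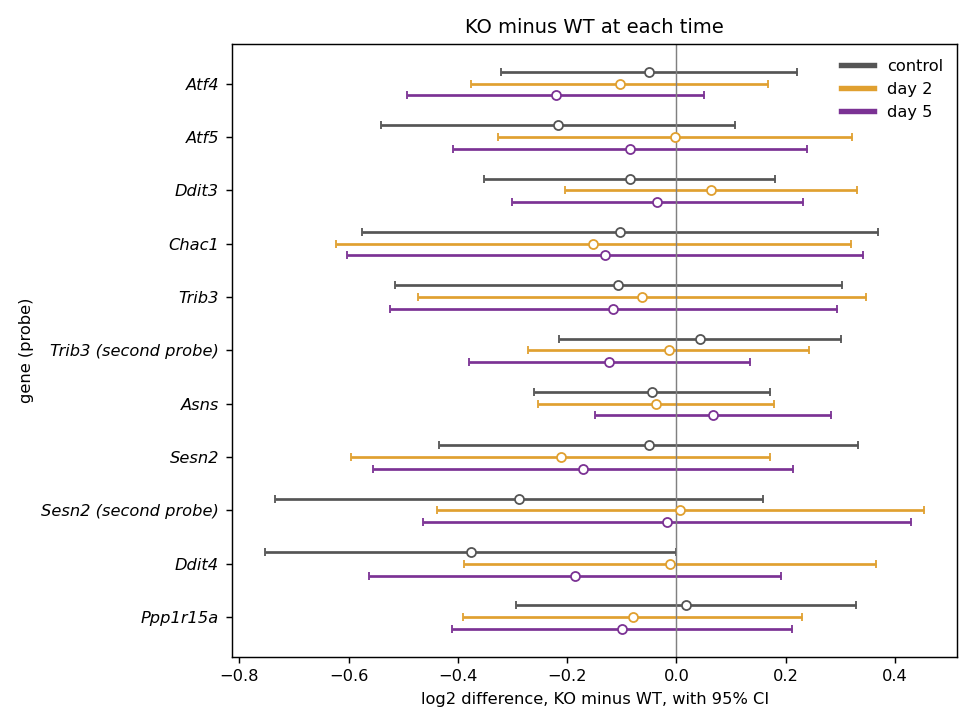
Log2 difference KO minus WT (x axis, 4 against 4 samples) for the 11 probes of the 9 genes (y axis) in control DRGs (grey), at day 2 (orange) and at day 5 (purple), with 95% confidence intervals. No point is filled, since none had a limma adjusted p under 0.05, and the control interval of *Ddit4* is the 1 interval that does not include 0.

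Of the genes around the response, 81 of 82 listed ones were on the array. On the brightest probe of each gene, 30 rose and 1 fell at day 2, and 39 rose and 3 fell at day 5. Of all genes, 9.39% were higher at day 2 and 10.2% at day 5, and 12.9% and 13% were lower. In the lists, 0 genes were called for KO minus WT at any time and 0 for the interaction. Without the library labelled KO control replicate 4, 30 rose at day 2 and 38 at day 5.

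In the list of stress kinases and eIF2 machinery, 2 of 18 genes rose at day 5, a share near the 10.2% of all genes. In the same list 1 of 18 fell, against 13% of all genes, and its median difference was 0.07. The eIF2 subunit *Eif2s2* had 11.62 to 11.86 in controls and 12.07 to 12.29 at day 5 and rose by 0.45 (limma adjusted p = 4.95e-06), and *Eif2s1*, which encodes eIF2alpha, rose by 0.30 (adjusted p = 0.0173). *Eif2a*, an initiation factor outside the eIF2 complex, fell by 0.25 (adjusted p = 0.00889). At day 5, 2 of 3 probes of *Eif2s2* and 1 of 2 of *Eif2s1* were called higher, and 1 of 2 of *Eif2a* was called lower. *Dnajc3*, not called on its brightest probe, was called lower on 1 of its 4 probes. None of the 4 eIF2alpha kinases passed at day 5. *Eif2ak3*, the kinase PERK of the endoplasmic reticulum, differed by 0.30 (adjusted p = 0.108), *Eif2ak2*, the RNA-activated PKR, by -0.26 (adjusted p = 0.0619), *Eif2ak1*, the heme-regulated kinase, by -0.09 (adjusted p = 0.617) and *Eif2ak4*, the amino acid sensor GCN2, by -0.06 (adjusted p = 0.687). These kinases act by phosphorylation, which mRNA levels do not show.

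Among serine and one-carbon enzymes, 8 of 14 rose at day 5 and 0 fell on their brightest probe. *Shmt1*, not called on that probe, was called lower on 1 of its 2 probes. *Mthfd2*, a mitochondrial folate enzyme, had 8.005 to 8.503 in controls, 8.65 to 9.34 at day 2 and 9.12 to 9.77 at day 5 and rose by 1.18 at day 5 (limma adjusted p = 1.67e-07). *Cth* encodes the cysteine-producing cystathionine gamma-lyase. It was well above background in 0 of 8 controls, 5 of 8 day 2 and 8 of 8 day 5 samples. Its measured day 5 difference was 1.53 (SE 0.24, limma adjusted p = 8.66e-05). The size is uncertain, since no control was well above background.

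Among aminoacyl-tRNA synthetases, which charge tRNAs with amino acids, 11 of 18 rose at day 2 and 10 of 18 at day 5, and 0 fell. *Cars* had 9.44 to 9.72 in controls and 10.24 to 10.76 at day 5 and rose by 0.90 (limma adjusted p = 2.60e-08). *Aars* rose by 0.62 (adjusted p = 7.79e-07). At day 5, 3 of 3 probes of *Cars* were called higher, but only 2 of 5 of *Aars*, with 0 lower. *Eprs*, not called on its brightest probe, was called higher on 2 of its 4 probes. Among amino acid transporters, 8 of 12 rose at day 5 and 1 fell. *Slc1a4*, a carrier of small neutral amino acids, rose by 1.10 (adjusted p = 7.49e-07) and *Slc7a3*, a carrier of cationic ones, rose by 0.97 at day 5 (adjusted p = 3.72e-10), with 8.01 to 8.32 in controls and 8.94 to 9.30 at day 2. The glutamine carrier *Slc1a5* fell by 0.25 (adjusted p = 0.0381).

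Among other genes known as ATF4 targets, 11 of 19 rose at day 5 and 1 fell. *Atf3* rose by 5.12 and 5.31 at the earlier and later time (limma adjusted p = 1.86e-09 and 7.07e-10), and the growth arrest gene *Gadd45a* rose by 3.19 and 2.96 (adjusted p = 3.72e-13 and 7.81e-13). *Vegfa*, a vessel growth factor, fell by 0.79 at day 2 and 0.62 at day 5 (adjusted p = 3.37e-06 and 4.52e-05).

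*Atf3* in controls was 7.25 to 7.69 where the other channel held a control and 9.04 to 10.004 where it held a lesion sample. *Chac1* in the same controls was 8.78, 9.33, 9.14 and 9.06 beside a control and 9.46, 9.41, 8.85 and 9.51 beside a lesion sample. An alternative had a block for whether both samples of an array were of the same time. There, 6 of 9 members were higher at day 2 and 8 of 9 at day 5, as without it. For lesion samples this block does not separate control partners from partners of the other day. It therefore cannot decide the part of the array partner, which was not tested.

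**Figure D4:**
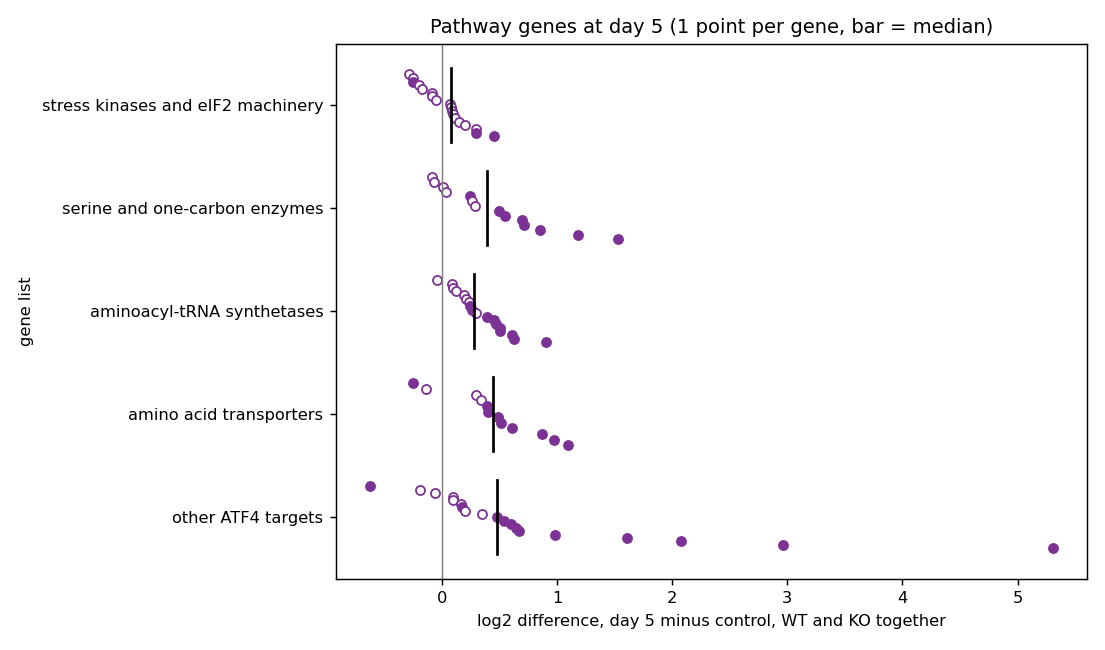
Log2 difference at day 5 over both genotypes (x axis) for the 81 genes of the 5 lists (y axis), with 1 point per gene, filled where the limma adjusted p was under 0.05, and a bar for the median of the list. The median is lowest, 0.07, for stress kinases and eIF2 machinery, and *Atf3* is the point at 5.31.

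The pattern of *Chac1* and *Trib3* over the 24 samples was set against 14483 genes that were well above background in every sample. The genes most like *Chac1* were *Mad2l2* (Pearson's r 0.986), *Nme2* (0.977), *S100a11* (0.973), *Epb4.1l4a* (0.972) and *Rmnd1* (0.971). The gene most like *Trib3* was *Chac1* (0.958), and *E030011O05Rik* (0.954), *Dtnbp1* (0.952) and *Mad2l2* (0.947) were also among the 5 most like it. These correlations hold the lesion difference that all these genes share and are a description over samples that share arrays. Among the other members, r with *Chac1* was 0.92 for *Asns*, 0.91 for *Atf4*, 0.89 for *Ddit3*, 0.84 for *Atf5*, 0.80 for *Sesn2*, 0.74 for *Ppp1r15a* and -0.01 for *Ddit4*.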

How the data were processed

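RNA of 24 DRG samples was hybridized to 12 Agilent 4x44K two-color arrays on 3 slides, a different sample in each channel, and each channel was used as a single-color measurement. The authors extracted the scans with Feature Extraction 10.7.3.1, and the deposited files give, for each spot and channel, foreground and local background intensity without normalization, with flags for outliers and for signal over background. Feature Extraction's own processed signal, also deposited, was used in an alternative only. The probe annotation is in mm9.

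Here, in R 4.3.3 with limma 3.58.1, mean foreground was corrected by median background with the Edwards method, the 24 channels were quantile normalized and log2 transformed, control spots and outlier spots were left out (417 of the probe values missing), and spots of a probe were averaged. One mean per group was fitted to all samples with lmFit and eBayes, contrasts were tested, and p was adjusted by Benjamini-Hochberg over 41174 probes (threshold 0.05). The scripts were tested on simulated data.

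Each gene is given by its brightest probe. Named were the 9 genes, *Nfil3*, *Atf3*, the 2 genes of each list with the largest day 5 change among those that passed and the 4 eIF2alpha kinases. *Eif2a*, *Slc1a5* and *Vegfa* were named after their values were seen, as the genes that fell. So were *Shmt1* and *Dnajc3*, each for a dimmer probe called lower, *Eprs*, for dimmer probes called higher, and *Tubb3*, as the neuron marker that rose. The 9 genes and the lists were chosen with earlier results of these data known. Samples were grouped by title. Nothing in the sources used here says which samples share a mouse, so p-values measure the spread between samples. Between 54.5% and 72.3% of probes were well above background in a sample, no spot was saturated, and precision is limited by 4 samples per group. Marker genes of 7 cell types were examined. Of those not given in the results, 0 of 4 T cell markers passed, 2 of 5 Schwann cell markers were higher at day 2 and 1 at day 5, and of 4 satellite glia markers 1 was higher and 3 lower at day 2 and 1 each at day 5. Alternatives were 15 other ways of processing or fitting and 24 left-out samples. The SAMR analysis of the study was not repeated here. One gene of the pattern comparison is not reported here.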

Additional observations from a re-analysis of the deposited data

Results flagged for a closer look

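In 66 groups of 4 samples (11 probes in 6 groups), 6 values, from 3 samples, lay apart from the other 3 of their group by Dixon's ratio at the 95% level, which chance passes in about 5% of groups. KO day 2 replicate 3 was low for 3 genes, with 9.96 for *Chac1* (next 10.93), 12.45 for *Atf5* (next 12.76) and 8.20 for *Ppp1r15a* (next 8.68). KO control replicate 2 was high for *Atf4*, with 10.04 (next 9.79), and for *Trib3*, with 8.17 (next 7.86). KO control replicate 1 was low for *Ddit4*, with 12.24 (next 13.07). Their causes were not tested.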

How the results depend on the processing

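The member counts at day 2 (6) and day 5 (8) over both genotypes stayed within 1.5 times under 15 alternatives and 24 left-out samples, and 0 members passed for KO minus WT or the interaction under any of them. The count between day 2 and day 5 (3) was 5 with Feature Extraction's processed signals and 5 with slide as a block, and 1 to 3 with a sample left out. With the library labelled KO control replicate 4 counted as KO day 5, the counts were 0 for day 5 minus day 2, 2 for WT at day 2, 1 for KO at day 2 and 3 for KO at day 5, and the largest absolute KO minus WT difference at day 5 was 0.53. Leaving out KO control replicate 1 turned the *Ddit4* difference at day 5 from 0.04 to -0.078, and within KO from 0.13 to -0.10, the lowest over left-out samples, where the highest were 0.085 and 0.23. With the replicate number as a block, 7 members passed at day 2, 8 at day 5, 4 between the days, and 6 within each genotype at day 2, and *Sesn2* was the gene gained at day 2 over both genotypes (adjusted p = 0.0464). Same-numbered samples had correlations of their deviations from -0.585 to 0.595, and 8 of 24 samples were closest to their own number. The median correlation was 0.057, against -0.045 for differently numbered samples of the same dye. These pairs were taken over all groups, also over WT with KO samples, which cannot share a mouse. They therefore cannot decide whether the replicate number marks a mouse. Pathway genes called higher, added after the data were seen, numbered 27 to 35 at day 2 and 35 to 45 at day 5 under the 15 alternatives. Precision is limited by 4 samples per group, by the 2 samples of each array (consensus correlation 0.262) and by the label conflict.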
